A study of Mus musculus with 2 samples.

Results

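The C7/Agt cells are a small set of collagen-rich, fibroblast-like cells of mouse dorsal skin that carried RNA of at least 2 genes of a short panel, in nearly all of them the complement gene C7 with another. They were chosen by measured UMIs (unique molecular identifiers, each standing for 1 captured RNA molecule). A barcode was kept with 200 to 8000 detected genes and at most 10% mitochondrial UMIs, and was called collagen-high at 100 or more UMIs of Col1a1, Col1a2 and Col3a1 per 10000. A collagen-high cell was a member when at least 2 of the 6 genes C7, Agt, Chrdl1, Plcxd3, Inmt and Gdf10 had a UMI, fewer than 2 of Pi16, Sfrp4, Mfap5, Ebf2 and Myoc had a UMI, and fewer than 2 of Cthrc1, Corin, Tnmd, Adamts18, C6 and Wif1 had a UMI. This gave 83 members of 62289 kept cells, of which 7 came from the control library and 76 from the library of testosterone-treated mice.

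The study examined the chemokine CXCL12 in stromal and immune cells of skin in a mouse model of androgenetic alopecia. Male C3H/HeN mice, 7 weeks old at the start and 9 weeks old at harvest, were shaved on the back. The TP group was injected under the skin with testosterone propionate at 0.5 mg per day, and the Con group received vehicle. Skin of 15 mice was pooled for each library, digested with collagenase D, freed of red cells and debris, and measured on the 10x Genomics droplet platform. Both groups were therefore 1 library of pooled animals, no comparison between Con and TP had a replicate, and no test was made. Another group, given an antibody to CXCL12 together with TP, was not analysed here.

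The dermis holds several kinds of fibroblast. All of them make collagen, and some also secrete soluble proteins of the complement cascade, the chain of plasma proteins that marks and lyses foreign cells and of which C7 is a late component and C3 the central one. Agt encodes angiotensinogen, the precursor of the angiotensin peptides, and Chrdl1 a secreted antagonist of bone morphogenetic proteins (BMPs). Gdf10 encodes a secreted ligand of the TGF-beta superfamily, Inmt an enzyme that methylates small amines, and Plcxd3 a protein with a phospholipase C domain. Of the excluding lists, Pi16 is a usual marker of adventitial fibroblasts, and the study counts Corin among the canonical markers of dermal papilla cells.

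The 2 libraries differed in depth. The median kept cell had 2162 UMIs in Con and 5166 in TP, and the median member 1861 and 4706. In TP the other collagen-high cells were deeper than the members, with a median of 7744 UMIs, and in Con they had 3073. All Con members together held 14456 UMIs, against 426366 in TP, so that 3 UMIs in Con already amounted to 207.5 CPM (UMIs per 1000000 UMIs of the class, the scale of all levels below). Intervals given below are 95% intervals for counting error only (ratios by the exact conditional method, levels by exact Poisson, shares by Clopper-Pearson). They hold none of the variation between mice, and those of UMI levels and ratios hold none of the variation between cells. The libraries shared 303 barcodes, and 1 member of TP carried a barcode that also occurred in Con.

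The members were fibroblast-like by genes the rule did not use. Dcn, which encodes the collagen-binding proteoglycan decorin, had a UMI in 76 of 76 TP members and in 5 of 7 Con members, at 9473 CPM (9183 to 9770) in TP and 5811 (4635 to 7194) in Con. Lum (lumican), another proteoglycan of this family, stood at 1201 CPM in TP and 553 in Con. Of 10 endothelial markers 9 had no UMI in either library's members, Pecam1 and Cdh5 among them. The remaining marker, Plvap, was at 58.6 CPM in TP members (25 UMIs) and 69.2 in Con members (1 UMI). All 10 summed to 40.6 and 59.1 CPM in the other collagen-high cells of TP and Con. Of 14 immune markers all were at 0 in Con and summed to 72.7 CPM in TP. Markers of 2 neural crest types had UMIs. The 12 Schwann and perineurial markers, 8 of them with a UMI in TP members and 3 in Con members, summed to 340 CPM in TP and 484 in Con (299 and 392 in the other collagen-high cells), while Sox10, Cdh19 and Gfra3 were at 0. The 8 melanocyte markers, all with a UMI in TP members and 4 in Con members, summed to 429 and 761 CPM (308 and 443 in the other collagen-high cells). The part of this RNA in the results was not tested.

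Keratinocyte RNA was present in the members. The 14 keratinocyte markers summed to 4566 CPM in Con and 11378 in TP, where single members ranged from 21.5 to 605 per 10000. In the other collagen-high cells the sums were 4135 and 7699. The 14 hair follicle keratins and related genes summed to 2698 CPM in Con members and 530 in TP members. Of the TP members 4 held most of the excess, 3 with 125 to 316 UMIs of the epidermal keratin Krt10 and 1 with 715 UMIs of the adipocyte gene Car3. These 4 cells supplied 18.5% of the UMIs of TP members, 2 of them were among the 14 TP members called doublets (cells caught together in a droplet), and without them the keratinocyte sum of TP was 5106. No Con member was called a doublet.

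The genes that name these cells were not found in all of them. C7 had a UMI in 75 of 76 TP members and 6 of 7 Con members. Agt had a UMI in 32 of the 76 TP members and in 0 of 7 Con members, too few cells for a comparison (3 counts, the limit that a count of 0 allows, would be 42.9% of cells with a UMI). In Con as a whole only 15 of 42244 kept cells had an Agt UMI. Inmt was found in 8 TP members and 0 of 7 Con members. The Con members carried C7, Plcxd3, Chrdl1 or Gdf10.

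The sequences just upstream of C7, Agt, C3 and Inmt are shown because C7 was the gene nearly every member carried and the other 3 were found together in the same cells (described after the levels). Each is the 250 bases before the annotated start, read 5′ to 3′ on the gene's own strand, from RefSeq for GRCm38.p6, the assembly behind the mm10 build that the submitters' processing notes name. C7 lies at chr15:4987750-5063773, with C6 at chr15:4727067-4804045 and Plcxd3 at chr15:4375491-4575585 on the same chromosome. Agt lies at chr8:124556587-124569706, C3 at chr17:57203967-57228136 and Inmt at chr6:55170627-55174990, and these 3 and C7 are all on the minus strand. Capitals mark TATAAA, the TATA box core, or TTGCNNAA, the core of C/EBP factor sites, on either strand.
C7 (chr15:5063774-5064023): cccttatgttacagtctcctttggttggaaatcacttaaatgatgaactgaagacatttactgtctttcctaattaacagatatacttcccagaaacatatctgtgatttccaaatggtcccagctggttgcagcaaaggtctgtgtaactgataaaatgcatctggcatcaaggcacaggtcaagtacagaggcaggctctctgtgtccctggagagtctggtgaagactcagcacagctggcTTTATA
Agt (chr8:124569707-124569956): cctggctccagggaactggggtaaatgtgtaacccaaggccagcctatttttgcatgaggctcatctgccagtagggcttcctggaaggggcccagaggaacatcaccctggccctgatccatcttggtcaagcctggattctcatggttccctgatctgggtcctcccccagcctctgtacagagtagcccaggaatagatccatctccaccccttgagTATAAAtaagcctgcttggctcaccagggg
C3 (chr17:57228137-57228386): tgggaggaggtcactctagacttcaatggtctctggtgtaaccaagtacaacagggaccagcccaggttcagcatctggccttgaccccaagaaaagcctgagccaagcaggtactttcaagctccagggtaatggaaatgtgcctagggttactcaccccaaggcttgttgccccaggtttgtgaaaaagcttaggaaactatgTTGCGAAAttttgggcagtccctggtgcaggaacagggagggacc
Inmt (chr6:55174991-55175240): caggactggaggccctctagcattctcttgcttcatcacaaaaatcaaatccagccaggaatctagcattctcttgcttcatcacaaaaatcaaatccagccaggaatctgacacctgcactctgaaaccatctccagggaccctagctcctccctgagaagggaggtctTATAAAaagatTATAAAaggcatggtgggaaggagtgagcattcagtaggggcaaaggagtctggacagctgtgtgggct
Agt held TATAAA from 30 to 25 bases before its start, C7 held it on the opposite strand in the last 6 bases, and Inmt held it at 2 places. C3 held TTGCNNAA from 45 to 38 bases before its start. Plcxd3 and Gdf10 held neither, and AGAACA, an arm of the palindrome that steroid hormone receptors bind, was in none of the 6 windows. Over all 32851 RefSeq windows of this length, 12.4% held TATAAA, 9.56% held TTGCNNAA and 16.1% held AGAACA. Chrdl1 had no window in the table used.

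The share of C7/Agt cells was higher in TP than in Con. They made up 0.0166% of kept cells in Con (7 of 42244, 0.00666 to 0.0341%). In TP the share was 0.379% (76 of 20045, 0.299 to 0.474%), 22.9 times that of Con (10.6 to 58.8). Collagen-high cells of every kind were also more frequent in TP, 746 against 190, or 3.72% against 0.450% of kept cells, a ratio of 8.28 (7.05 to 9.76). Within collagen-high cells the members took 3.68% in Con (1.49 to 7.44%) against 10.2% for TP (8.11 to 12.6%), which is a ratio of 2.77 (1.28 to 7.11).

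The difference in share depended on what it was set against. Pi16-list cells (2 or more genes of the first excluding list) made up 0.161% of kept cells in Con against 1.44% for TP, which is a ratio of 8.93 (6.83 to 11.8), and Cthrc1-list cells (2 or more of the second list) 0.0829% and 0.689%, a ratio of 8.31 (5.70 to 12.4). Depth moved with the group, and deeper cells show more genes of each list. After every cell was thinned to 1000 UMIs the rule took 6 of 36882 cells in Con and 116 of 19154 in TP, which is 37.2 times the share (16.6 to 104), or 5.01 (2.23 to 13.9) as a share of collagen-high cells. Only 41 of the 76 TP members were among those 116, 53 of which had been Pi16-list cells before thinning. In Con 3 of the 7 members were among the 6, 2 of which had been Pi16-list cells.

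**Figure D1:**
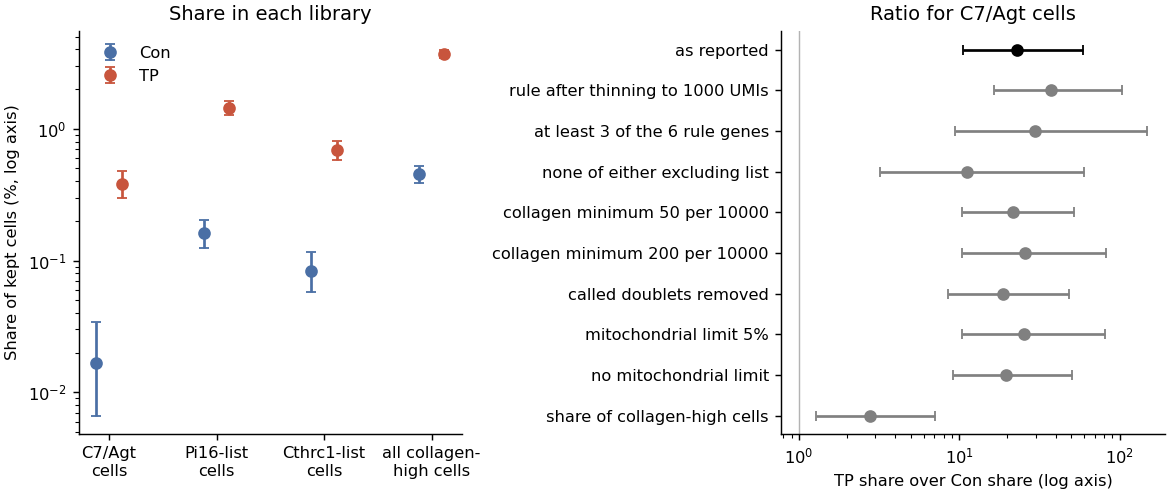
Left: the share of kept cells (percent, log axis) taken by the C7/Agt cells, Pi16-list cells, Cthrc1-list cells and all collagen-high cells in the Con library (blue) and the TP library (red), with 95% Clopper-Pearson bars. Right: the ratio of the TP share to the Con share of C7/Agt cells (log axis, exact 95% bars) as reported and under 9 alternatives, which lay between 2.77 and 37.2, all above the line at 1.

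Most cells with the genes of the rule were not members. Of the collagen-high cells with 2 or more of the 6 genes, 50 in Con and 403 in TP, only 7 (14%) and 76 (18.9%) became members, while 36 and 217 were set aside by the Pi16 list alone. In TP the members held 12.8% of all C7 UMIs and 22.1% of all Agt UMIs of kept cells, and Pi16-list cells held 49.3% and 40.2%. Members with 1 gene of the Pi16 list, just inside the limit, had C7 at 2090 CPM (45 cells), and cells with 2 such genes and otherwise the same, just outside, at 2403 (64 cells). Members with exactly 2 of the 6 genes had C7 at 770 CPM (34 cells), and cells with 1 had 733 (44 cells), while C3, which the rule did not use, was at 405 and 140 CPM. These values are a description of the limits.

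The genes of the rule were spread unevenly among the members, and their levels, which chose the cells, are given without a comparison of significance. C7 stood at 1888 CPM (1760 to 2023) in TP members and 899 (479 to 1538) in Con members. Cell by cell it ranged in TP from 0 to 88 UMIs with a median of 7, and in Con from 0 to 7 with a median of 1. In the other collagen-high cells it was at 871 CPM in TP and 340 in Con, while inner root sheath-like cells (hair follicle keratinocytes that should lack the gene, median 6400 UMIs in TP and 2103 in Con) had 1.71 and 0.103. In TP cells thinned to 1000 UMIs (74 members and 648 other collagen-high cells were deep enough), C7 was detected in 68.9% of members, 38.3% of the other collagen-high cells and 0 of 455 inner root sheath-like cells, for which the 95% Clopper-Pearson upper bound is 0.807%, against 98.7%, 61.6% and 1.73% before thinning.

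Plcxd3 was at 394 CPM (337 to 458) in TP members, with a UMI in 49 cells, and at 415 (152 to 903) in Con members. Gdf10 was at 244 (199 to 296) in TP, in 39 cells, and at 623 (285 to 1182) in Con, in 4 of 7 cells. Chrdl1 was at 169 (132 to 213) in TP, in 31 cells, and at 484 (195 to 998) in Con, in 4 cells. The Con levels of these 3 genes rest on 6 to 9 UMIs each, and asking for UMIs of these genes in shallower cells raises their CPM by itself, so no difference between the libraries is read from them. C6, another late complement component and a gene of an excluding list, had 4 UMIs in 3 TP members and none in Con members.

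Agt was at 253 CPM (208 to 306) in TP members and at 85.0 in Pi16-list cells, 53.2 in Cthrc1-list cells and 0.956 in the cells with none of the lists. Con members had 0 Agt UMIs, where 3 UMIs would be 207.5 CPM and the exact Poisson upper limit was 255 CPM, so a difference from TP was not detectable at this depth. Inmt had 30 UMIs in 8 TP members, or 70.4 CPM (47.5 to 100), and was at 36.9 in Pi16-list cells and at 0 in Cthrc1-list cells. The rule chose members by UMIs of these 6 genes, so their levels describe the choice and no difference is read from them.

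C3, which the rule did not use, was at 1177 CPM (1077 to 1285) in TP members, in 47 cells, and at 830 (429 to 1450) in Con members, where all 12 UMIs came from 1 cell. In TP it ranged from 0 to 54 UMIs a cell with a median of 2. Pi16-list cells of TP had 1353 CPM, above the members, and the other collagen-high cells together had 709.

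**Figure D2:**
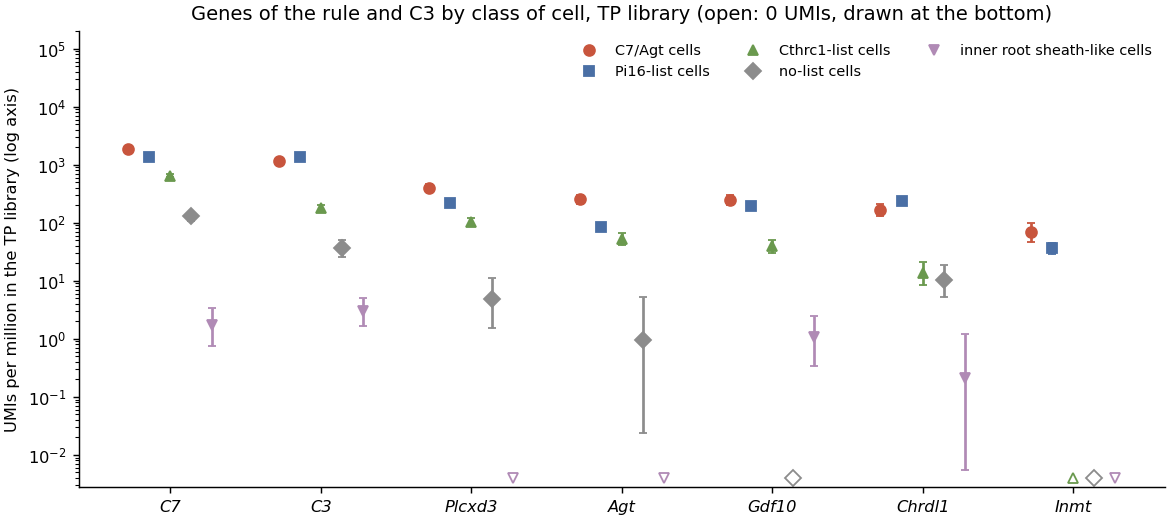
Levels of the 6 genes of the rule and of C3 (CPM, log axis, 95% Poisson bars) in the TP library, in C7/Agt cells (red circles), Pi16-list cells (blue squares), Cthrc1-list cells (green triangles), cells with none of the lists (grey diamonds) and inner root sheath-like cells (purple inverted triangles). C7, Plcxd3, Agt, Gdf10 and Inmt were highest in the C7/Agt cells, C3 and Chrdl1 in the Pi16-list cells, and a class with 0 UMIs is drawn open at the bottom.

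The TP members were next divided by Agt. Of 32 members with an Agt UMI, 29 also had a C3 UMI, against 18 of 44 members without Agt. All 8 members with Inmt were among the 32 with Agt and all 8 had C3. Plcxd3 was in 18 of 32 and 31 of 44, but the rule itself favours this, since a member without Agt needs 2 of the remaining 5 genes and a member with Agt needs 1. Depth did not separate these cells, whose median was 4653 UMIs with Agt and 4706 without.

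**Figure D3:**
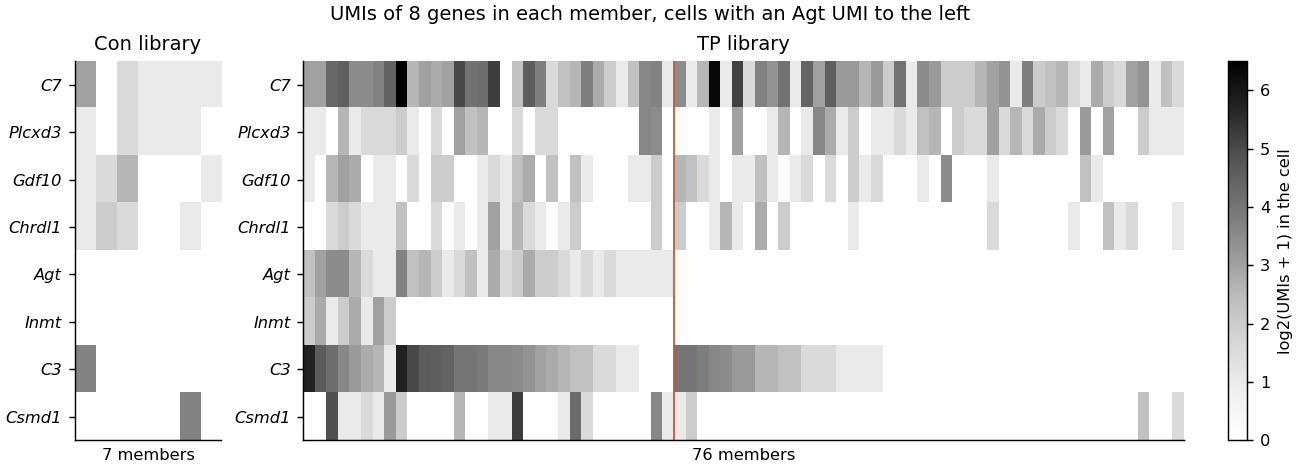
UMIs of 8 genes (rows, grey scale of log2 of UMIs plus 1) in each of the 7 Con members and 76 TP members (columns). The red line separates the 32 TP members with an Agt UMI, on the left, from the 44 without. C3, Inmt and Csmd1 are concentrated on the left, and no Con member has Agt or Inmt.

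Genes outside the rule differed between these subsets of members. With the 4 members rich in Krt10 or Car3 left out, 31 TP members with Agt and 41 without were summed, and among 1113 genes with 50 or more UMIs, 94 (8.45%) were at least 2-fold higher with Agt and 41 (3.68%) at least 2-fold lower. With the cell with the most UMIs of each gene left out of the group where it was higher, 60 were higher and 28 lower. The genes named from this division were picked after their values were seen, most of them among the 15 with the largest or the 12 with the smallest ratio once the cell with the most UMIs had been left out, and Serping1, Ace, Cxcl12 and Col1a1 outside them. Csmd1, which encodes a membrane protein that inhibits complement, was at 784 CPM with Agt and 52.1 without, a ratio of 15.1 (7.92 to 32.2), and had a UMI in 16 of 31 and 4 of 41 cells. C3 was at 2379 and 562, a ratio of 4.23 (3.40 to 5.29), and the complement gene C4b at 437 and 88.5, a ratio of 4.94 (2.87 to 8.97). Serping1, which encodes the inhibitor of the first complement component, was at 2674 and 1067.

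Cygb (cytoglobin) was at 572 CPM with Agt and 72.9 without, a ratio of 7.85 (4.44 to 14.9). Gpx3 (the secreted glutathione peroxidase) was at 3568 and 979, Cp (ceruloplasmin, a copper carrier) at 270 and 41.6, and the chemokine Cxcl14 at 579 and 109. Sult1e1, the estrogen sulfotransferase, was at 636 and 120, a ratio of 5.32 (3.35 to 8.77). Ace, the enzyme that converts angiotensin I, was at 521 and 250, a ratio of 2.08 (1.44 to 3.04), and Cxcl12 at 636 and 318, a ratio of 2.00 (1.44 to 2.80).

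Members without Agt had more RNA of other genes. Cdh4, a cadherin, had 62 UMIs in 14 of 41 cells without Agt and 0 in the 31 with Agt. Hpgd, the enzyme that breaks down prostaglandins, was at 999.6 CPM without Agt and 116 with it, a ratio of 0.116 (0.0672 to 0.188), and the transcription factor Creb5 at 568 and 77.1. The guidance ligand Slit2 and its receptor Robo1 were at 349 and 250 without Agt and at 96.4 and 51.4 with it. Col1a1 was at 29562 and 20906 CPM.

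The same genes were then read in the Pi16-list cells of TP, none of which was a member, 56 with an Agt UMI and 232 without. These cells came from the same library and bordered the members at the Pi16 limit, so their values too are a description. All 15 genes picked as higher with Agt had a log2 ratio above 0 there, and 7 of the 15 were at least 2-fold higher, where 42.9% of 6358 genes were above 0 and 1.75% were at least 2-fold higher. Of the 12 genes picked as lower with Agt, 10 were below 0 and 5 at least 2-fold lower, where 3.1% of all genes were. Csmd1 was at 434 CPM with Agt and 55.1 without, a ratio of 7.87 (6.19 to 10.1), C4b at 210 and 59.7, Cp at 213 and 67.1, and C3 at 2198 and 1081. Creb5 was at 179 and 555, and Dab2 was the exception among the lower genes that stood 1.81-fold higher with Agt (Sh3pxd2b was near 1). The Pi16-list cells with Agt were deeper, with a median of 9840 UMIs against 7066, and whether depth had a part was not tested.

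**Figure D4:**
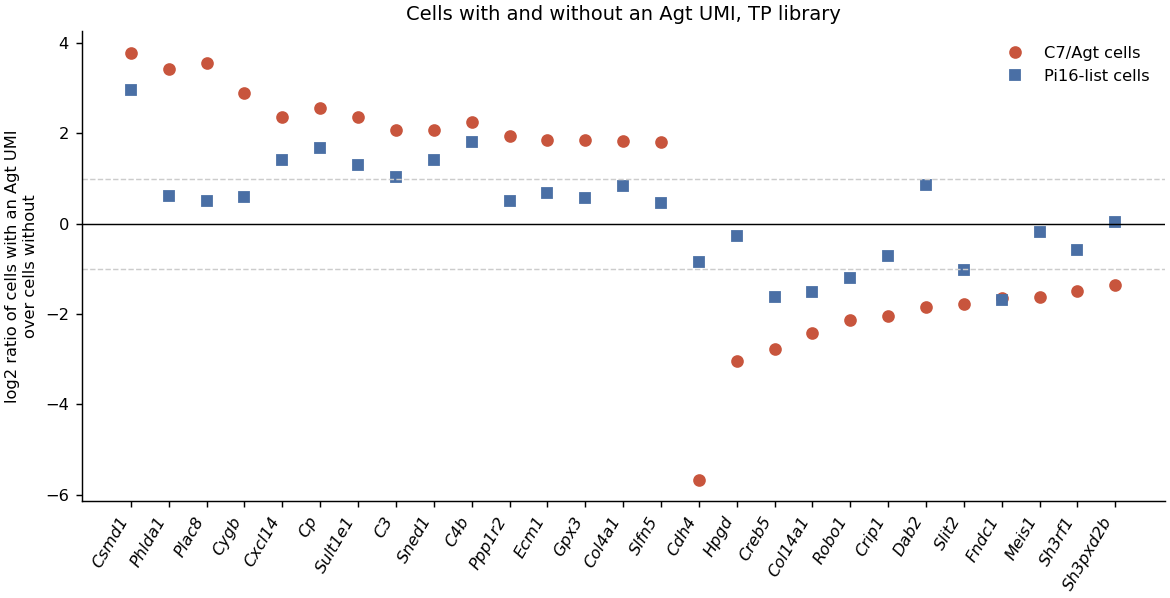
The log2 ratio of CPM in TP cells with an Agt UMI over TP cells without (1 UMI added to each sum), for the 15 genes picked as higher and the 12 picked as lower in C7/Agt cells (red circles), and for the same genes in Pi16-list cells (blue squares). Dashed lines mark 2-fold. All 15 squares on the left lie above 0 and 10 of the 12 on the right lie below it.

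Against the other collagen-high cells of the TP library (the same pool of mice), the members held more RNA of Gas6, Csmd1, C4b and Apoe and less of Acta2, Col11a1 and Mki67. Among 9697 genes with 50 or more UMIs in members and other cells together, 474 (4.89%) were at least 2-fold higher and 560 (5.77%) at least 2-fold lower in members. Genes near that limit had few UMIs in members. Many of the higher genes rested on a single cell. Without the member with the most UMIs of each gene 157 were above 2-fold and 1228 below, a setting that takes UMIs from the members alone, while without the 4 members rich in Krt10 or Car3 there were 453 and 629, of which 297 and 398 were shared. The rule chose and excluded cells on genes of this same contrast, so these values are a description.

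The genes named next, picked after their values were seen, were at least 2-fold higher also without the member that had most UMIs of them. Pde11a, a phosphodiesterase of cyclic nucleotides, was at 148 CPM in TP members and 32.0 in the other collagen-high cells, a ratio of 4.61 (3.41 to 6.17), with UMIs in 23 members. Csmd1 was at 310 and 66.7, a ratio of 4.64 (3.78 to 5.67). Adamtsl3, a matrix protein of the ADAMTS-like family, was at 145 and 37.5, and the potassium channel Kcnt2 at 204 and 66.7, in 39 members. The Pi16-list cells of TP were closer to the members, with Kcnt2 at 136 CPM, Csmd1 at 147, Adamtsl3 at 72.8, Gas6 at 720 and Tshz2 at 627, and Pde11a at 48.1. Gas6, the ligand of the TAM receptor kinases, was at 1335 (1227 to 1449) and 473, a ratio of 2.82 (2.57 to 3.09), and had a UMI in 65 of 76 members. Tshz2, a zinc finger transcription factor, was at 891 and 345 and in 59 members. After thinning to 1000 UMIs, Gas6 was detected in 50% of members and 27.5% of the other cells, and Kcnt2 in 28.4% and 7.10%.

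Of 15 measured complement genes outside the rule, C3 included, 3 were at least 2-fold higher, 2 were at least 2-fold lower, and the median log2 ratio was 0.33, against 0.01 over all genes. Of all genes 4.89% were higher and 5.77% lower, and the counts of this and the following lists stand against those shares. C4b was at 206 CPM in members and 58.9 in the other cells, a ratio of 3.50 (2.74 to 4.44), and in Pi16-list cells of TP at 210 with an Agt UMI and 59.7 without. C2 was at 167 and 79.6, a ratio of 2.09 (1.61 to 2.69), and its log2 ratio without the highest cell was 0.96, under 2-fold. Serping1 was as high in the other cells, 1543 against 1508. Clu (clusterin) was at 79.7 and 36.2 with UMIs in 10 members, a log2 ratio of 1.18 that was 0.41 without the highest cell, and the lower genes Masp1 and C1qa had 4 and 0 UMIs in members.

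Hormone-related genes were mixed. Of 23 genes of steroid hormone response 3 were at least 2-fold higher and 1 lower (4.89% and 5.77% of all genes), with a median of 0.39. Steap4, a metalloreductase, was at 143 CPM in members and 45.5 in the other cells (3.15, 2.34 to 4.17), Glul (glutamine synthetase) at 312 and 124 (2.52, 2.08 to 3.04), and the mineralocorticoid receptor Nr3c2 at 56.3 and 26.9. The log2 ratio of Nr3c2 was 0.82 without the highest cell, under 2-fold. Cdkn1c, a cell cycle inhibitor, was at 9.38 and 52.3. Of 11 genes of steroid conversion, Sult1e1 (286 and 93.7 CPM) and Srd5a1, the steroid 5-alpha-reductase (12 UMIs in members), were 2-fold higher. The Pi16-list cells of TP were closer to the members in Sult1e1, at 331 CPM with an Agt UMI and 134 without. None of 7 renin-angiotensin genes other than Agt passed 2-fold, and Ace was at 321 and 267.

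Of 33 chemokine and cytokine genes 5 were at least 2-fold higher and 1 lower (4.89% and 5.77% of all genes). Il1r1, the interleukin 1 receptor, was at 371 and 175 CPM (2.12, 1.78 to 2.51), Ccl11 at 84.4 and 41.3, and Cxcl13 at 79.7 and 29.97. Without the highest cell of each gene the log2 ratio was 1.15 for Cxcl13. It was under 2-fold for Il1r1 (0.90), Ccl11 (0.87), Il6 (0.78) and Osmr (0.78). Cxcl12 was at 385 and 219, a ratio of 1.76 (1.49 to 2.07). Of 12 preadipocyte genes 5 were 2-fold higher, and 3 without the 4 members set apart. Apoe was at 4630 and 2071 CPM, a log2 ratio of 1.16 with all members and 1.17 without those 4, and Fabp4 had log2 ratios of 4.68 and 0.91. With only the highest cell of each gene left out, the log2 ratios were 0.93 for Apoe and 0.675 for Fabp4, both under 2-fold. Of 11 genes of adipogenesis-regulatory stroma Vit, Gas6 and Ggt5 were 2-fold higher and none lower, with Ggt5 at a log2 ratio of 0.86 without the highest cell.

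Of 23 interferon-stimulated genes 7 were at least 2-fold higher and 1 was lower (4.89% and 5.77% of all genes), with a median of 0.59. Single cells held part of this. Ifit1 had 39 UMIs in 4 members, with a log2 ratio of 3.31 over all members and 0.01 without the highest cell, and for Isg15 the ratios were 2.35 and 0.43. Ifi47 and Gbp2, in 8 and 13 members, had log2 ratios without the highest cell of 1.41 and 1.02. The abundant members of the list, Ifitm3 and Ifitm2, were at 797 and 579 CPM in members and at 934 and 671 in the other cells.

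**Figure D5:**
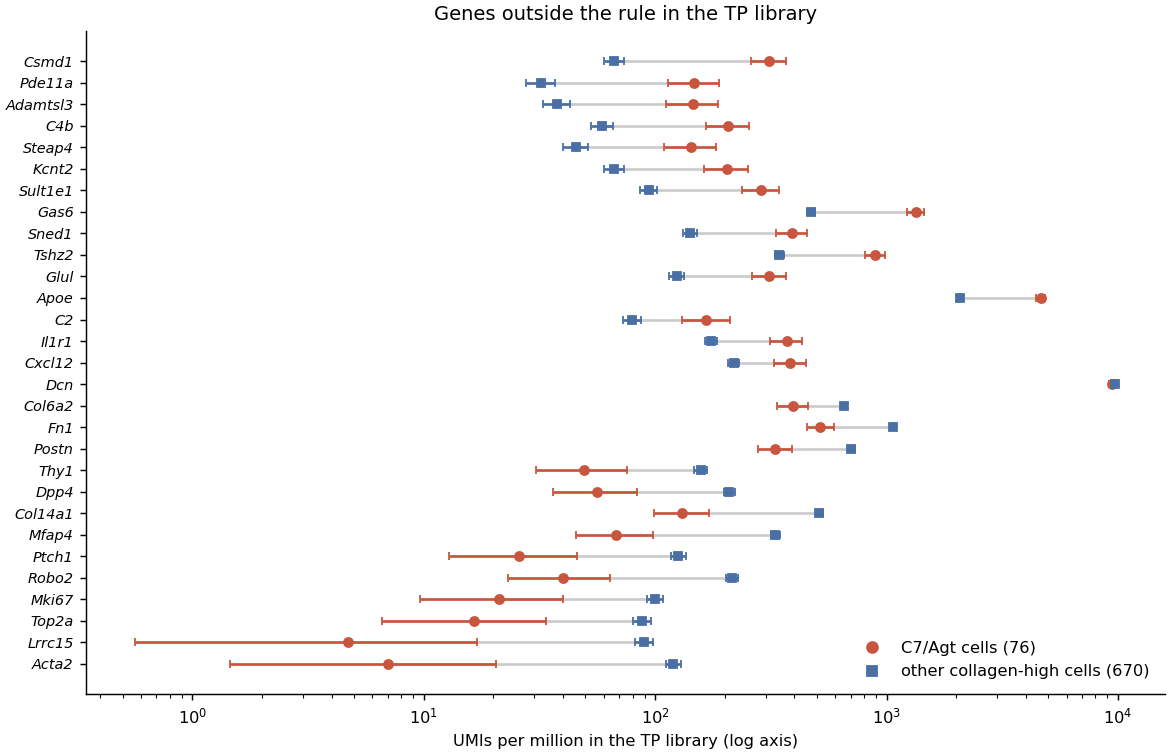
Levels of 29 genes outside the rule (CPM, log axis, 95% Poisson bars) in the 76 C7/Agt cells of TP (red circles) and the 670 other collagen-high cells of TP (blue squares). The genes at the top, from Csmd1 to Cxcl12, lie to the right in the C7/Agt cells, Dcn is level at 9473 and 9669, and the genes below Dcn lie to the left, with Acta2 at 7.04 and 120 and Lrrc15 at 4.69 and 89.7.

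Several matrix and contractile genes were lower, though most genes of the matrix lists did not pass 2-fold. Col11a1, a minor fibrillar collagen, and Igfbp2, which binds insulin-like growth factors, had no UMI in TP members and 667 and 773 UMIs in the other collagen-high cells. At a floor of 3 UMIs in members, this bounds the difference at 16.3-fold and 18.9-fold lower, and the exact Poisson upper limit would give smaller folds. The Pi16-list cells of TP were low too, with Col11a1 at 1.73 CPM, Lrrc15 at 3.04 and Igfbp2 at 39.0, while the Cthrc1-list cells had 383, 278 and 140. Acta2, smooth muscle actin, was at 7.04 CPM in members and 120 in the other cells (0.0587, 0.0121 to 0.172), and Lrrc15, a gene of activated fibroblasts, at 4.69 and 89.7. Of 16 collagens outside the basement membrane 1 (Col6a5) was 2-fold higher and 5 were lower (4.89% and 5.77% of all genes), with a median of -0.44. The log2 ratio of Col6a5 was 0.87 without the highest cell. Col14a1 was at 131 and 513 CPM and Col12a1 at 9.38 and 80.8. Of 36 matrix glycoproteins 2 were higher and 7 lower, among them Fn1 (fibronectin), Postn (periostin) and Mfap4, and 3 and 3 without the 4 members set apart. Without those 4 the log2 ratios of Fn1 and Postn were -0.80 and -0.98, no longer past 2-fold, and that of Mfap4 was -2.20. The level of Acta2 was 440 in Cthrc1-list cells and 6.07 in Pi16-list cells, and that of Col14a1 771 in Pi16-list and 74.6 in cells with none of the lists.

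Of 17 measured cell cycle genes none was higher and 8 were at least 2-fold lower (4.89% and 5.77% of all genes), with a median of -0.95. These 8 had only 0 to 9 UMIs each in members. Mki67 was at 21.1 CPM in members and 99.9 in the other cells (0.211, 0.0961 to 0.404), with UMIs in 8 of 76 members, and Top2a at 16.4 and 87.7. Of 12 genes of dermal papilla and sheath none was higher and 6 were lower, with a median of -1.10. Apart from Vcan with 77, the lower ones had 0 to 4 UMIs each in members. Of 27 WNT genes 1 (Rspo2, with a log2 ratio of 0.84 without the highest cell) was 2-fold higher and 9 were lower. Of 11 IGF genes none was higher and 3 were lower. Dpp4, an adventitial fibroblast gene outside the rule, was at 56.3 CPM in members and at 334, 72.6 and 130 in Pi16-list, Cthrc1-list and no-list cells. Of 12 adventitial genes none was higher and 4 were lower. The rule set aside cells with 2 or more genes of the Pi16 or Cthrc1 list, and these stood among the comparison cells. The lower papilla, sheath and adventitial genes therefore describe that choice of cells, and no difference is read from them.

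For the remaining lists the counts were small, and with 4.89% of all genes higher and 5.77% lower, nothing is read from counts of 1 to 4. Of 43 mesenchymal transcription factors 3 were higher (Tshz2, Nr2f2 and Sox9) and 4 lower, Gli1 and Gli2 of hedgehog signalling among them, and Ptch1, a hedgehog receptor and target, was at 25.8 and 126 CPM. Of 33 BMP and TGF-beta genes 1 was higher and 3 lower, of 27 proteases and inhibitors 1 and 4, and of 31 immediate-early genes 1 and 4. Of 31 xenobiotic and antioxidant enzymes 3 were higher, Cyp7b1 among them at 127 and 46.1 CPM, and none lower. Of 12 papillary genes none was higher and 3 were lower, and of 17 retinoid genes 1 and 2. Of 30 growth factor genes (FGF, PDGF, VEGF and HGF) and 9 small proteoglycans 2 each were lower and none higher, and of 16 pan-fibroblast genes Thy1 alone was lower. None of 14 basement membrane, 14 heat shock and 12 MHC class I genes passed 2-fold.

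Read in both libraries, the contrast with the other collagen-high cells was thin. Of 1533 genes with 50 or more UMIs in the members, 52 (3.39%) were at least 2-fold higher in both Con and TP, and of 2487 genes with 50 or more UMIs in the comparison cells of each library, 24 (0.965%) were at least 2-fold lower in both. The 15 largest of the higher genes by the rule for naming, led by Car3, Klk9 and Klk6, were genes of keratinised epidermis or fat that had 0 UMIs in Con members, with Fabp4 at 1, and took 77.1 to 100% of their TP UMIs from 1 cell. In Con the 14 genes at 0 passed 2-fold through the pseudocount of 1 UMI added to each sum, and Fabp4 through its single UMI. In the lower direction the 8 named genes were Sostdc1, Acta2, Col11a1, Lrrc15, Myl9, Cilp, Sfrp2 and Tagln. Sostdc1, a BMP and WNT antagonist of the dermal papilla, was at 69.2 CPM in Con members against 898 in the other cells, and at 9.38 against 61.8 in TP. The other 7 had no UMI in Con members, where 183 other cells had 194 to 345 CPM. At a floor of 3 UMIs this bounds the difference in Con at 0.934-fold for Tagln to 1.66-fold for Acta2, so a 2-fold difference in Con was not detectable for these 7.

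The members of TP were then set against those of Con, which asks what the cells of this kind held after androgen. Of 1533 genes TP exceeded Con by 2-fold or more for 169 (11%) and lay 2-fold or more below it for 251 (16.4%), and 40.2% of the called genes were higher. With the trimmed mean scaling (TMM), which moved every log2 ratio up by 0.92 and the median of all genes from -0.25 to 0.67, 517 were higher and 21 lower, so that 96.1% were higher. A gene with 50 member UMIs had 1.64 UMIs expected in Con. The lower calls shrank to 11 of 285 genes where 200 UMIs were asked for. The 1 UMI added to each sum weighs more on the smaller Con sum and shifts the log2 ratios of such genes down. With a pseudocount of 0.1 per 10000 instead, 371 were higher and 137 lower. The ratios below are relative to the total of each library's members.

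The 10 genes highest in TP over Con by the rule for naming were Flg, Car3, Asprv1, Sprr1a, Klk7, Spink5, Lgals3, Lor, Ifrd1 and Gadd45g. Of these, 7 (Flg, Car3, Asprv1, Sprr1a, Klk7, Spink5 and Lor) took 91.6 to 99.6% of their UMIs from 1 member, and none had a UMI in Con members. Without the 4 members rich in Krt10 or Car3, TP members held 3 to 17 UMIs of each, 8.63 to 48.9 CPM, below what 3 UMIs would be in Con (207.5 CPM), so no difference could be read in either direction. The other 3 were spread over 44 to 50 members. Ifrd1 was at 1001 CPM (909 to 1101) in TP members and had 1 UMI in Con, 69.2 CPM, a ratio of 14.5 (2.58 to 573). The other collagen-high cells had Ifrd1 at 930 CPM in TP and 141 in Con, a ratio of 6.59 (5.32 to 8.25), and the inner root sheath-like cells had 571 and 152. Gadd45g, a stress-inducible gene, had 204 UMIs in TP and 0 in Con. At a floor of 3 UMIs in Con (207.5 CPM), the bound was 2.31-fold higher in TP for Gadd45g and 2.53-fold for Lgals3 (galectin 3). The exact Poisson upper limit for 0 UMIs in Con, 255 CPM, lies above that floor and gives smaller folds. Without the 4 members the log2 ratio of Lgals3 (1 UMI added to each sum) fell from 2.93 to 2.44, and its bound lay under 2-fold. In the other collagen-high cells Gadd45g was at 422 in TP and 138 in Con, and Lgals3 at 555 and 342.

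Of 19 immediate-early genes, which respond within a short time to many stimuli, 9 passed 2-fold upward and none downward (11% and 16.4% of all genes), with a median log2 ratio of 0.98, or 18 of 19 under TMM. Fos was at 2179 CPM (2041 to 2324) in TP members and 415 (152 to 903) in Con, a ratio of 5.25 (2.40 to 14.3), and Egr1 at 919 and 69.2 (13.3, 2.37 to 526). In the other collagen-high cells Fos was at 2404 in TP and 744 in Con, whereas inner root sheath-like cells had 1430 and 236. Egr1 was at 912 and 307 in the former and at 788 and 152 in the latter.

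Tnfaip6, Ugdh and Gas6 were picked after their values were seen, among the 10 genes highest in TP over Con without the 4 members rich in Krt10 or Car3, as was Egr1. Tnfaip6, a secreted hyaluronan-binding protein induced in inflammation, was at 1611 CPM (1493 to 1736) in TP members and at 207.5 (3 UMIs, all in 1 cell) in Con, a ratio of 7.76 (2.65 to 37.7), at 1127 and 161 in the other collagen-high cells, and at 0.854 and 1.95 in the inner root sheath-like cells. Ugdh, which makes the sugar precursor of hyaluronan, was at 950 and 138 (6.87, 1.89 to 56.9) and at 1041 and 122 in the other collagen-high cells. Gas6 was at 1335 in TP and 208 in Con members (6.43, 2.19 to 31.3) and at 473 and 299 in the other collagen-high cells. Of 10 chemokine and cytokine genes 5 were higher and 2 lower (11% and 16.4% of all genes). Cxcl12 was at 385 (328 to 448) in TP and 138 (2 UMIs, 16.8 to 500) in Con, a ratio of 2.78 (0.758 to 23.1) whose interval holds 1.

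The 10 genes lowest in TP over Con were Tchh, Cyp7b1, Pdcd4, Greb1l, Prr16, Fip1l1, Ackr3, Cpxm1, Fmo2 and Nsd1, each with 6 to 14 UMIs in Con members. Tchh, trichohyalin of the hair follicle, was at 830 CPM in Con members and 91.5 in those of TP, a ratio of 0.110 (0.0565 to 0.231), and inner root sheath-like cells had 4691 and 6253. The hair keratin sum given above was likewise higher in Con members, and its part in this was not tested. Cyp7b1, the oxysterol hydroxylase, was at 899 (479 to 1538) in Con and 127 (95.1 to 165) in TP, but 12 of its 13 Con UMIs came from 1 cell. Ackr3, the second receptor of CXCL12, had 6 Con UMIs, all in 1 cell, and was at 103 in TP. Cpxm1, a carboxypeptidase-like matrix protein, was in 5 of 7 Con members and at 969 CPM there, against 230 (187 to 280) in TP, a ratio of 0.237 (0.135 to 0.450), while the other collagen-high cells had 235 and 233. With members chosen after thinning, the log2 ratio was -0.0293 for Cpxm1, -0.18 for Cyp7b1, -0.33 for Pdcd4, -0.97 for Fmo2 and -0.69 for Nsd1, so none of these 5 passed 2-fold, and that of Ackr3 was 0.25. With at least 3 of the 6 genes asked for, it was -0.38 for Ackr3, -0.59 for Greb1l and 0.56 for Prr16, none of them past 2-fold.

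Collagens other than those of the rule differed by chain. Of 9 collagens outside the basement membrane 5 were at least 2-fold lower in TP and 1 higher (16.4% and 11% of all genes), with a median log2 ratio of -1.06, and under TMM 0 were lower and 2 higher. Col6a2 was at 1107 CPM (633 to 1797) in Con members against 394 (337 to 458) in those of TP (ratio 0.356, 0.213 to 0.637), but with members chosen after thinning its log2 ratio was -0.74 and did not pass 2-fold. Col6a3 was at 1384 and 603 (0.436, 0.276 to 0.725). Col5a2 was at 1176 in Con and 1937 in TP (1.65, 1.02 to 2.84). In the other collagen-high cells Col6a2 was at 601 in Con and 654 in TP and Col6a3 at 742 and 608. Bgn (biglycan) was at 1591 and 410 in members (0.258, 0.167 to 0.418) and at 951 and 627 in the other cells.

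For genes that the study names in fibroblasts, most intervals held 1. Tgfbr2, a TGF-beta receptor, had a ratio of 1.52 (0.582 to 5.63) and the gelatinase Mmp2 0.862 (0.486 to 1.69). Anxa1 (annexin A1) was at 945 and 208, a ratio of 4.56 (1.55 to 22.2), and at 1126 and 429 in the other collagen-high cells. Col16a1 had 1 UMI in Con members and 63.3 CPM in TP (ratio 0.915, 0.151 to 37.5). C3, whose 12 Con UMIs all came from 1 cell, was 1.42-fold (0.805 to 2.76) as high in TP. Gsn and Sparc, picked after their values were seen among the genes with the most UMIs in Con members, had ratios of 0.891 (0.736 to 1.09) and 1.25 (1.10 to 1.44).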

How the data were processed

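Dorsal skin cells of 1 control (Con) and 1 testosterone propionate (TP) library, each a pool of 15 mice, were measured with a droplet 3′ kit. The deposited matrices hold raw UMI counts per gene and barcode, made by the authors with Cell Ranger 8.0.1 against mm10 (submitters' processing notes). The filters, the rule for members and their number are given in the text. Members and gene lists were chosen with earlier results of these data known. UMIs of each cell class were pooled and scaled to 1000000 per class (CPM). A gene was called at 2-fold, with 1 UMI added to each sum and at least 50 UMIs. With 1 library per group no p-value was computed. Named genes were the 15 highest and 8 lowest against other collagen-high cells in both libraries, the 10 highest and 10 lowest in TP over Con, the 4 most abundant and those past 2-fold of each list, and fibroblast genes the study names. Genes picked otherwise are said to be. Some genes that met these rules are not reported here. Comparisons without 4 members, without the highest cell, against Pi16-list cells, or within TP after thinning were added after seeing the data. Doublets were scored against simulated pairs, 7.5% of cells were called, and called cells were kept except in an alternative. The code was tested on simulated data. Python 3.11.15, numpy 2.4.6, scipy 1.17.1, pandas 2.3.3, scikit-learn 1.9.0 and matplotlib 3.10.9 were used, with edgeR 4.0.16 in R 4.3.3 only for the TMM factor.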

Additional observations from a re-analysis of the deposited data

How the results depend on the processing

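The ratio of the TP share to the Con share of C7/Agt cells was 22.9 among kept cells and 2.77 among collagen-high cells, and above 1 under all 9 alternatives run. Of 1533 genes within members, the 169 higher and 251 lower in TP became 517 and 21 with the TMM factor. With a pseudocount of 0.1 per 10000 they became 371 and 137. Other settings tested other numbers of genes. They gave 29 and 11 of 205 genes with members thinned to 1000 UMIs, and 51 and 11 of 285 at 200 or more UMIs. With at least 3 of the 6 genes they were 103 and 102 of 696. The lower genes numbered 1257 of 3835 at 20 or more UMIs and 9943 of 13207 with no filter. They numbered 695 of 3063 with members chosen after thinning and 167 of 1183 without the 4 members rich in Krt10 or Car3. The 1 UMI added to each sum weighs more on the Con sum (14456 UMIs against 426366 in TP) and shifts the log2 ratios of sparse genes down. These counts of lower genes are therefore not read as lower levels in TP. The 52 genes higher than in other collagen-high cells of both libraries became 2 after thinning, 9 at 200 or more UMIs, 146 against Cthrc1-list cells and 24 without the member with the most UMIs of each gene. In TP alone, 474 higher and 560 lower genes became 157 and 1228 without that member, a setting that takes UMIs from the members alone, and 102 and 146 after thinning, where fewer genes were tested. The 94 genes higher in TP members with Agt than in those without became 60 without the cell with the most UMIs of each gene. Of 27 named genes, the log2 ratio of TP over Con changed sign for 10. With members chosen after thinning it was 0.25 for Ackr3, 0.40 for Col16a1, -2.30 for Car3, -1.30 for Lor, -2.45 for Sprr1a, -2.30 for Flg, -1.45 for Asprv1, -0.37 for Klk7 and -0.81 for Spink5. With at least 3 of the 6 genes it was 0.56 for Prr16, -2.25 for Lor, -3.25 for Sprr1a and Flg, -2.84 for Asprv1, -2.03 for Klk7 and -0.93 for Spink5. Without the 4 members it was -0.78 for Car3, -1.59 for Lor, -2.59 for Sprr1a and Flg, -1.003 for Asprv1 and Klk7 and -0.42 for Spink5. After thinning the members it was -1.04 for Lor, -0.0395 for Sprr1a, -0.45 for Klk7 and -0.82 for Spink5, and with called doublets removed -2.28 for Car3. With members chosen after thinning, Cpxm1, Cyp7b1, Pdcd4, Nsd1, Col6a2 and Fmo2 kept their sign at -0.0293, -0.18, -0.33, -0.69, -0.74 and -0.97 but no longer passed 2-fold. With at least 3 of the 6 genes the same held for Ackr3 and Greb1l, at -0.38 and -0.59. Car3, Lor, Sprr1a, Flg, Asprv1, Klk7 and Spink5 had 0 UMIs in Con members in each of these settings, so their negative values come from the 1 UMI added to the smaller Con sum and show no lower level in TP. Col16a1 and Prr16 were also at 0 in Con where their sign changed, and Ackr3 had 1 UMI. The cause of the other changes was not tested. Alternatives without the 4 members or the highest cell, and thinning within TP, were chosen after seeing the data. The 7 Con members held 14456 UMIs, so genes under 207.5 CPM were at or under 3 UMIs there. No paired analysis was possible because each group is 1 library.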
